A study of Mus musculus with 6 samples.

Results

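Of the 57180 identified genes in the deposited count table, 42 genes of the axon guidance families are described here: 14 semaphorins, 7 plexins, 3 Slits, 2 Robos, 2 netrins, 2 Unc5 receptors, 8 Eph receptors and 4 ephrins. They were taken by a fixed list of symbols that leaves out Efnb2, Ephb4 and other relatives, some of which are given at the end. RNA came from calvaria-derived cells, grown out of the bone of the mouse skull vault and kept in osteogenic MEM alpha medium with 10% fetal bovine serum, 50 mg/ml ascorbate (as the labels print it) and 4 mM β-glycerophosphate. The 3 wt libraries are from C57BL/6 mice. The 3 other libraries, labelled FasL KO and called gld here, are from B6Smn.C3-Faslgld/J mice, which are homozygous for the gld mutation of Fasl in every cell, so the loss is not limited to bone. Fasl had 0 counts in all 6 libraries, and as gld is a point mutation its RNA level would not check the labels. Strain and genotype cannot be told apart in these groups. Both groups had the same medium, and neither of the groups used here received recombinant Fas ligand, per their titles. The labels give no age and do not state that replicates are separate animals or cultures; a p-value here reflects the spread among the 3 libraries of each group, and that spread may be technical.

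Guidance genes encode paired ligands and receptors that steer growing axons and also set where other cells move, spread or touch. Semaphorins bind plexins, the secreted class 3 semaphorins mostly through neuropilins; Slits bind Robos, netrins bind Unc5 receptors and DCC or neogenin, and ephrins bind Eph receptors on a neighbouring cell. In the skeleton, Sema3A, Sema4D, Slit3 and netrin-1 are known from mouse work as signals between osteoblasts, osteoclasts, nerves and vessels, and ephrin-B1 is needed for normal skull sutures in human.

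The libraries held 2011173 to 3105322 counts in wt and 4048258 to 5245546 in gld. Levels are CPM, a gene's counts relative to its library's total on a common scale, with the totals scaled between libraries by the trimmed mean of M-values (TMM), and they are given as mean ± SD over 3 libraries, and fold changes are log2, gld minus wt, with their standard error (SE). As a check of the cell type, 8 of 12 osteoblast markers could be tested, of which 5 rose and 2 fell in gld, and their summed level ran from 17139 to 25054 CPM in wt and, in gld, from 63653 to 70224 CPM. Chondrocyte markers rose in 4 of 4 tested of 8, and smooth muscle markers fell in 5 of 5 tested of 8. Beside all these marker counts, 9.74% of all tested genes were called higher and 7.69% lower, at an edgeR adjusted p under 0.05. Macrophage markers (7 of 8 tested rose and 1 fell, of 13) summed to 281, 432 and 255 CPM in wt against 2241, 3616 and 6293 CPM in gld, with Csf1r, Adgre1, Tyrobp and Fcer1g listed at 0. Different genes make up these sums: Cd14, the marker that fell, gave 278, 308 and 237 CPM of the wt sums, and Lyz2, a lysozyme gene, gave 1782, 2941 and 4984 CPM of those in gld. The macrophage markers C1qa, C1qb, C1qc, Cd68, Laptm5 and Mrc1 had enough counts to be tested in gld alone. So did the chondrocyte markers Acan and Col11a2 and the osteoblast marker Ibsp. All of these could be tested only because they are high in gld. Among 8 osteoclast markers the 1 tested, Ctsk, rose from 172 ± 9.08 to 464 ± 42.1 CPM, with Acp5, Calcr, Dcstamp and Oscar at 0. The 1 tested of 8 endothelial markers did not pass, with Pecam1 and Cdh5 at 0, and of 8 Schwann and glial markers 1 of 3 tested rose, with Sox10 at 0. Of 8 neuron markers, the 1 tested, Tubb3, fell, and Snap25, Syt1, Rbfox3 and Elavl4 were at 0. In bulk RNA, fewer cells of a type and less RNA per cell cannot be told apart.

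Whether a guidance gene could be measured went with the structure of its annotated end. The reads lie near the poly(A) tail, so the final 300 bases of the principal transcript were compared with the exons of the gene's other transcripts in GENCODE M21 (GRCm38). In 21 of the 42 genes at least 99% of those bases belong to a single transcript, and 19 of these 21 had enough counts to be tested. In the other 21 the end is shared between transcripts, and only 5 of them could be tested. The median count over the 6 libraries was 949 in the first set and 14 in the second. All 7 genes listed at 0 in every library, Sema4a, Plxnb2, Slit1, Ntn1, Unc5b, Ephb3 and Efna1, have a shared end. Of all protein-coding genes in the table, 43.9% of those with a single-transcript end and 14.5% of those with a shared end could be tested. A gene at 0 may thus still have had a transcript in these cells, and levels are not compared between genes. This limit also holds for the cell type markers named above at 0, all of which but Csf1r, Cdh5 and Snap25 have a shared end.

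**Figure D1:**
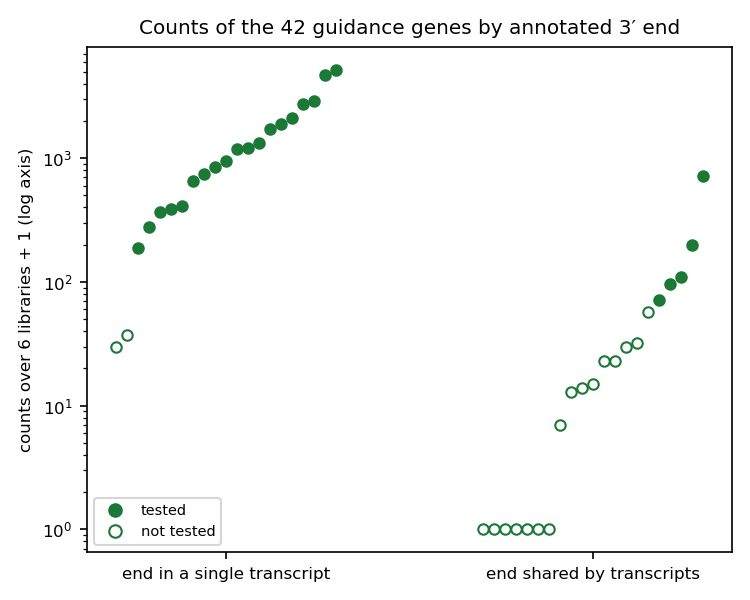
Counts of each of the 42 guidance genes summed over the 6 libraries, plus 1, on a log axis, split by whether the annotated 3′ end lies in a single transcript or is shared; filled points were tested. The single-transcript genes run from 29 to 5169 counts, and the shared-end genes from 0 to 718, with 7 at 0.

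In gld, Robo2, Unc5c, Plxnc1, Plxna2, Plxnd1 and Efna5 rose, and Ntn4, Slit3, Sema7a and Sema5a fell. These are 10 of 24 tested members, or 41.7%, at an adjusted p under 0.05 in edgeR's quasi-likelihood test, where 17.4% of all 8692 tested genes were called, 9.74% as higher and 7.69% as lower. A closer base is the tested protein-coding genes. With a single-transcript end 1156 of 4902 of these were called, beside 9 of 19 members, and with a shared end 208 of 1540, beside 1 of 5 members. Scaling by library size alone turned the balance over all genes from 847 higher and 668 lower to 720 higher and 975 lower, and that among the members from 6 and 4 to 6 and 6. At least 2-fold changes were called in 9 of the 24, and in 11.8% of all tested genes. The CPM of the 2 groups did not overlap in 14 of the 24, and in 33.3% of all tested genes. The median log2 fold change of the 24 was 0.07, beside 0.02 over all tested genes, and the median size of the change was 0.84 beside 0.47. Of the 12 tested ligands 1 rose and 4 fell, and of the 12 tested receptors 5 rose and 0 fell. The difference between these sides was not tested, and neither was that between the members and all genes. The list of members was chosen with earlier results of these data known, so the shares above only describe it. Robo2 is the one member that passed the filter on low counts through gld alone, so that it could be tested only because it is high there.

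**Figure D2:**
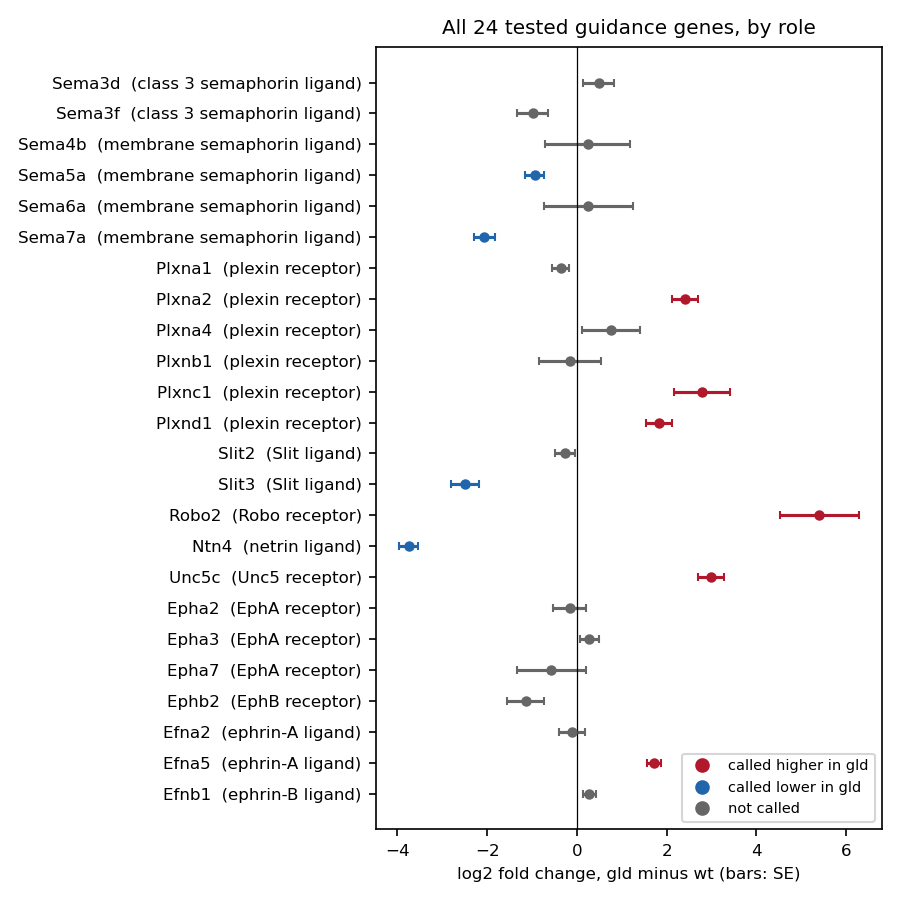
Log2 fold change (gld minus wt, bars ± SE from edgeR) of the 24 tested guidance genes, in the order of their roles. The called receptors lie right of 0, from 1.83 for Plxnd1 to 5.40 for Robo2, and the called ligands lie left of 0, down to −3.74 for Ntn4, except Efna5 at 1.71.

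For 4 of the called genes, 2 that fell and 2 that rose, the 250 bases before the RefSeq start (GRCm38.p6) are shown to let the letters of genes with opposite changes be compared. They are the called genes with 1 RefSeq promoter whose window lies outside every exon of GENCODE M21 and whose RefSeq start falls within a GENCODE transcript. Capitals mark matches to any of 8 motifs, searched on both strands. They are TGTGGT for RUNX factors, GGAATG for TEAD factors, CACGTG for E-box proteins, TGACGTCA for the cAMP response element, TGANTCA for AP-1, GGGCGG for the GC box, CCAAT for factor NF-Y, and TATAAA for the basal machinery.
Ntn4, chr10:93640799-93641048, plus strand: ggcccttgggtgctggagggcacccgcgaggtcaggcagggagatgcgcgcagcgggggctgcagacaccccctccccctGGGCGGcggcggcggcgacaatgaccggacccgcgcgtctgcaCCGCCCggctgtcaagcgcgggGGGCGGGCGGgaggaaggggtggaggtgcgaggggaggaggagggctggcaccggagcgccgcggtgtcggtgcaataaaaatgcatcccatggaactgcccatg
Sema7a, chr9:57939862-57940111, plus strand: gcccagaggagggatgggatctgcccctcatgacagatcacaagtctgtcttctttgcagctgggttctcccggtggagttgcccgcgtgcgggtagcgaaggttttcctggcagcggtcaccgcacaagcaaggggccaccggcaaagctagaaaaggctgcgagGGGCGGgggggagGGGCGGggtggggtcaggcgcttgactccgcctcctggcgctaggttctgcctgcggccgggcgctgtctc
Efna5, chr17:62881318-62881567, minus strand: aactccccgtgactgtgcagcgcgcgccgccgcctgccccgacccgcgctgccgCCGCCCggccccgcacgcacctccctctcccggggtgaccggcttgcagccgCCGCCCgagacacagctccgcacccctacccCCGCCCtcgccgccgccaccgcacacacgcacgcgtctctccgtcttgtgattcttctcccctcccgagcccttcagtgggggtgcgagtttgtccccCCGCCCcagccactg
Plxnd1, chr6:115995006-115995255, minus strand: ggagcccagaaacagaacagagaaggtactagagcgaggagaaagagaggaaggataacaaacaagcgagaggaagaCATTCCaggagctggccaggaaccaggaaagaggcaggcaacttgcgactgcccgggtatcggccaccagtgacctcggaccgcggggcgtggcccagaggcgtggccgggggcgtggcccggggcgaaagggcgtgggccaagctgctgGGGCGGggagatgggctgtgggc
In these windows the GC box GGGCGG was found 4 times in Ntn4, 2 times in Sema7a, 4 times in Efna5 and 1 time in Plxnd1, which also holds 1 TEAD match. Nearby GC boxes can overlap, as in Ntn4. RefSeq promoters matched 35 of the 42 genes and all 10 called ones, 9 of them with 1 promoter. The GC box was in 8 of these 9, all but Unc5c, and in 32.7% of 32851 promoter windows. A RUNX match was found in Unc5c, and in 14.0% of all windows. The TATAAA, NF-Y, AP-1, cAMP response element and E-box letters were in none of the 9, and in 12.4%, 33.8%, 6.75%, 1.55% and 6.02% of all windows. The 9 windows had a median G+C content of 71.2% and 22 CpG, against 52.4% and 6 over all windows. All windows include those of genes not tested here and can hold several per gene, so they are an unlike base for called genes. Whether any motif goes with a call was not tested. Over the 9, G+C content ran from 62.8% in Plxna2, which rose, to 78.8% in Slit3, which fell.

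The 1 tested netrin, Ntn4, fell, and the 1 tested Unc5 receptor, Unc5c, rose. Ntn4 (ENSMUSG00000020019, chromosome 10, 93640681 to 93747207, plus strand) encodes netrin-4, a secreted protein that binds laminins of the basement membrane. It had 617, 1187 and 819 counts in the wt libraries and 94, 105 and 86 in gld, or 289.9, 375 and 251 CPM against 23.4, 27.7 and 17.7 CPM. Every gld library lay far below every wt library. Its level went from 306 ± 63.4 to 22.9 ± 5.04 CPM, 13.4-fold lower in gld, with a log2 fold change of −3.74 ± 0.21 (edgeR adjusted p = 1.79e-08). It was the 74th lowest fold change of all 8692 tested genes. Unc5c (ENSMUSG00000059921, chromosome 3, 141465216 to 141834924, plus strand) encodes a death-domain receptor that repels axons from netrin-1. It had 34, 72 and 28 counts in the wt libraries and 515, 472 and 606 in gld, or 16.0, 22.8 and 8.6 CPM against 128, 124 and 124 CPM. The gld libraries were nearly equal and all above wt. Its log2 fold change was 3.00 ± 0.29 (edgeR adjusted p = 3.57e-06), a 7.97-fold rise from 15.8 ± 7.08 to 126 ± 2.33 CPM. Ntn1, the best known netrin, and Unc5b were listed at 0 in all libraries, and both have a shared end. Whether Ntn1, the ligand that Unc5c is best known to bind, was absent or missed cannot be told from these counts.

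Of the 2 tested Slits 1 fell, and the 1 tested Robo, Robo2, rose. Slit3 (ENSMUSG00000056427, chromosome 11, 35121224 to 35708507, plus strand), a secreted ligand made by bone cells in mouse, had 271, 376 and 304 counts in the wt libraries and 67, 122 and 59 in gld. On the CPM scale these are 127, 119 and 93.3 against 16.7, 32.2 and 12.1, without overlap. It was 5.60-fold lower in gld, with a log2 fold change of −2.48 ± 0.31 (edgeR adjusted p = 4.37e-05). Slit2, which encodes a closely related ligand, had 61.1, 80.0 and 65.1 CPM in wt against 45.2, 64.9 and 62.2 CPM in gld. The groups overlapped, and its log2 fold change was −0.26 ± 0.22 (edgeR adjusted p = 0.524). Robo2 (ENSMUSG00000052516, chromosome 16, 73891839 to 74411825, minus strand), a Slit receptor, had 0, 1 and 2 counts in the wt libraries and 85, 75 and 34 in gld. All gld libraries were far above wt, gld 3 the least. The pooled level was 43.6-fold higher in gld (95% exact counting interval 14.7 to 213), and edgeR gave 5.40 ± 0.88 (adjusted p = 0.000472), or 6.18 without wt 3. Limma-voom did not call it (adjusted p = 0.0765). The end of Robo2 is shared by transcripts among its 13. Robo1 had 7 counts in the wt libraries and 24 in gld and was not tested.

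Among semaphorins, 2 membrane-bound members fell and none of the 6 tested rose. Sema7a (ENSMUSG00000038264, chromosome 9, 57940112 to 57962865, plus strand), a lipid-anchored semaphorin that binds plexin C1 and β1 integrins, had 189, 385 and 310 counts in the wt libraries and 119, 79 and 110 in gld. Its CPM of 88.8, 122 and 95.2 in wt stood well above the 29.7, 20.8 and 22.6 in gld. It was 4.18-fold lower, with a log2 fold change of −2.07 ± 0.23 (edgeR adjusted p = 1.58e-05). Sema5a (ENSMUSG00000022231, chromosome 15, 32244810 to 32696341, plus strand), a transmembrane semaphorin with thrombospondin repeats, had 267, 763 and 538 counts in the wt libraries and 385, 331 and 465 in gld. After scaling, these were 125, 241 and 165 CPM against 96.0, 87.3 and 95.5 CPM, with wt spread wide and gld narrow. It was 1.91-fold lower, with −0.94 ± 0.21 (edgeR adjusted p = 0.00563), and it is the called member with the smallest change. Sema3f, a secreted semaphorin that acts through neuropilin 2, had 71.9, 37.9 and 29.2 CPM in wt against 24.9, 26.9 and 18.1 in gld. The groups did not overlap, but at −0.98 ± 0.35 it was not called (edgeR adjusted p = 0.0700). Without wt 3 it was called, at −1.23 (edgeR adjusted p = 0.0341), as it was without the low-count filter or when scaled by library size alone. These were the only 3 of 12 alternatives that called it. Without wt 1, its highest library, Sema3f was at −0.53 (edgeR adjusted p = 0.426). Sema3d, secreted too, had 0.49 ± 0.35 (edgeR adjusted p = 0.428), with overlapping groups. Sema4b and Sema6a, both transmembrane, had under 8 CPM in each library and standard errors of 0.95 and 0.98, and were not called.

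Plexins, the semaphorin receptors, gave 3 increases among 6 tested and no decrease. Plxna2 (ENSMUSG00000026640, chromosome 1, 194618218 to 194816869, plus strand), a receptor for class 6 semaphorins that also pairs with neuropilins, had 21, 41 and 48 counts in the wt libraries and 312, 264 and 263 in gld. The lowest gld library, at 54.0 CPM, was above the highest wt library, at 14.7 CPM. Its level rose 5.29-fold from 12.5 ± 2.46 to 67.1 ± 12.1 CPM, with a log2 fold change of 2.40 ± 0.28 (edgeR adjusted p = 2.44e-05). It lies 32.8 Mb from Fasl on the same chromosome, the nearest of the 42 genes to it. Plxnd1 (ENSMUSG00000030123, chromosome 6, 115954811 to 115995005, minus strand), the receptor of Sema3E, had 32, 38 and 64 counts in the wt libraries and 214, 204 and 291 in gld. At 15.04, 12.01 and 19.7 CPM against 53.4, 53.8 and 59.7 CPM the groups were well apart, with a 3.56-fold rise and 1.83 ± 0.28 (edgeR adjusted p = 0.000298). Its ligand gene Sema3e had 10, 12 and 1 counts in the wt libraries and 0, 5 and 1 in gld, too few to be tested.

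Plxnc1 (ENSMUSG00000074785, chromosome 10, 94790866 to 94944835, minus strand), the Sema7A receptor, had 13, 8 and 9 counts in the wt libraries and 35, 91 and 214 in gld. Its CPM were 6.11, 2.53 and 2.76 in wt but 8.73, 24.0 and 43.9 in gld. Gld 1 was just above the highest wt library and gld 3 far above it. The log2 fold change was 2.79 ± 0.62 (edgeR adjusted p = 0.00536), a 6.90-fold rise. Without gld 3 it was 2.11 and no longer called (edgeR adjusted p = 0.0633), and limma-voom did not call it either (adjusted p = 0.0889). Plexin C1 is known on myeloid cells, and gld 3 also held the highest summed macrophage marker level, 6293 CPM, and gld 1 the lowest of gld, 2241 CPM; the part of these cells in the result was not tested. Plxna1, which binds class 3 semaphorins with neuropilin 1, had 110, 117 and 117 CPM in wt against 67.9, 97.8 and 103 CPM in gld. Its groups did not overlap, but −0.36 ± 0.19 was not called (edgeR adjusted p = 0.255), and the gene model Gm26811 overlaps its end. Plxna4 at 0.75 ± 0.65 and Plxnb1, the Sema4D receptor, at −0.16 ± 0.69 were not called (edgeR adjusted p = 0.529 and 0.930), and both had overlapping groups.

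Ephrin-A5 was the ligand that rose. Efna5 (ENSMUSG00000048915, chromosome 17, 62604184 to 62881317, minus strand) encodes a lipid-anchored ligand of EphA receptors. It had 219, 385 and 285 counts in the wt libraries and 1449, 1390 and 1441 in gld, or 103, 122 and 87.5 CPM against 361, 367 and 296 CPM. The groups were widely apart, with a 3.28-fold rise and a log2 fold change of 1.71 ± 0.16 (edgeR adjusted p = 2.44e-06). The other tested ephrin-A gene, Efna2, had 36.0 ± 7.08 CPM in wt against 33.6 ± 8.52 CPM in gld, with −0.10 ± 0.29 (edgeR adjusted p = 0.883). Efnb1, the ephrin of skull sutures, had 163, 217 and 203 CPM in wt against 236, 239 and 234 CPM in gld. It did not overlap between groups, but 0.28 ± 0.14 was not called (edgeR adjusted p = 0.227).

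None of the 4 tested Eph receptors was called by edgeR. Epha3, a high-affinity receptor of ephrin-A5, had 55.5, 97.4 and 80.4 CPM in wt against 94.3, 96.5 and 94.0 CPM in gld. The gld values fell inside the wt range, and its log2 fold change was 0.28 ± 0.21 (edgeR adjusted p = 0.456). Ephb2, a receptor of B-class ephrins, had 30.5, 28.1 and 23.9 CPM in wt against 17.5, 13.2 and 6.77 CPM in gld, without overlap. It was at −1.14 ± 0.40 (edgeR adjusted p = 0.0700) and not called. It was called lower by limma-voom (adjusted p = 0.0343), without gld 1 (edgeR adjusted p = 0.0429) and when scaled by library size alone (edgeR adjusted p = 0.0363). These were the only 3 of 12 alternatives that called it. Over the 12 its log2 fold change ran from −1.49 to −0.86, and without wt 1 it was at −1.07 (edgeR adjusted p = 0.182). Epha2, at −0.16 ± 0.37, and Epha7, at −0.57 ± 0.78, were not called (edgeR adjusted p = 0.854 and 0.727), and their groups overlapped.

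**Figure D3:**
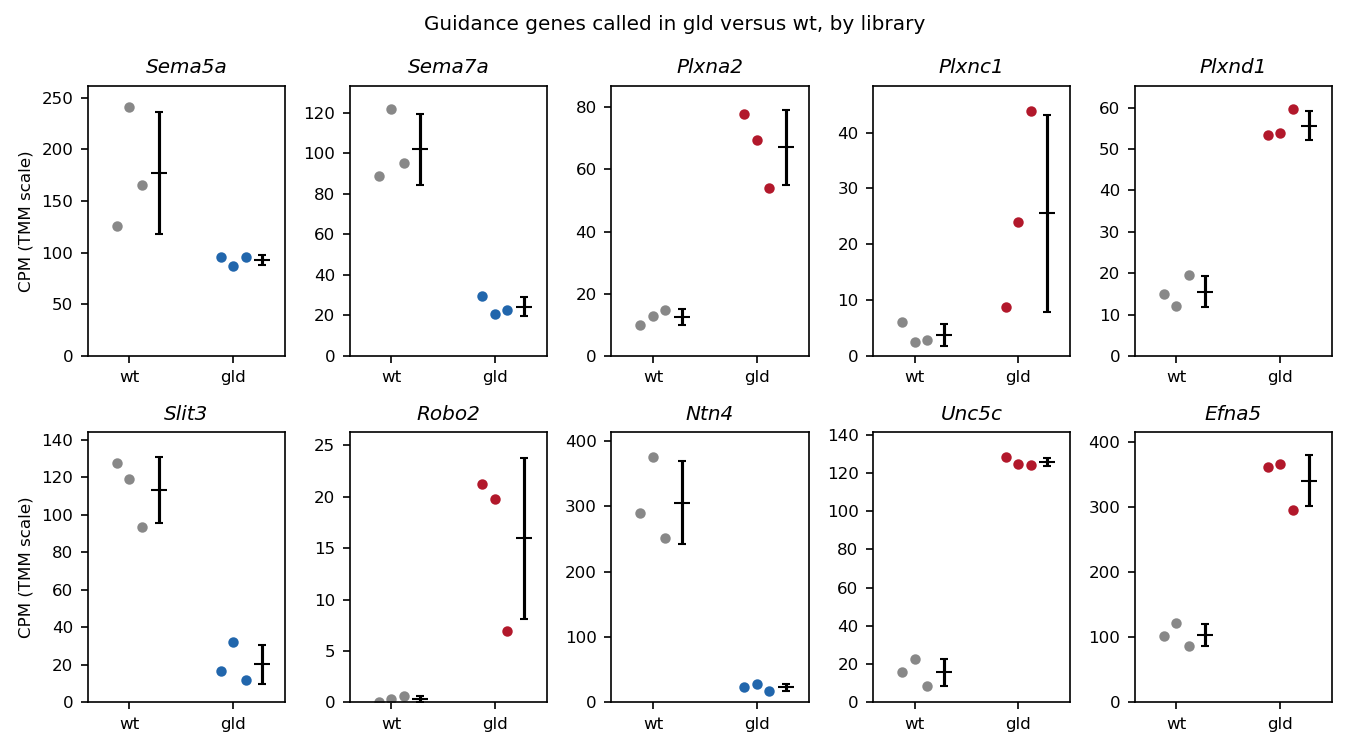
CPM on the TMM scale of the 10 called guidance genes in each of the 3 wt and 3 gld libraries (points), with mean ± SD beside them; every axis starts at 0. No wt library overlaps a gld library in any panel, and relative to its mean Plxnc1 varies most within gld.

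Besides Robo1 and Sema3e, 9 members had some counts but too few to be tested. Sema3a, which protects bone in mouse, had 12, 5 and 2 counts in the wt libraries and 11, 6 and 0 in gld. Sema4d, through which osteoclasts act on osteoblasts in mouse, had 6 counts, all in gld 1. Sema3c, a secreted semaphorin, had no count in wt and 7, 3 and 46 in gld, so that 1 library holds most of them. It was at least 11.4-fold higher in gld against a floor of 3 counts over the wt group, and edgeR called it once the filter was dropped (adjusted p = 0.0308). Sema3b, also secreted, had no count in wt and 10, 8 and 4 in gld, at least 5.15-fold higher, and was not called without the filter (edgeR adjusted p = 0.279). Sema4c, Sema6d, Epha4, Epha5 and Ephb6 had between 12 and 29 counts over all libraries.

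Summed by family, plexins were higher in every gld library than in any wt library, and semaphorins lower. Plexins summed to 160, 166 and 170 CPM in wt against 231, 267 and 287 CPM in gld, and semaphorins to between 318 and 438 CPM in wt against between 193 and 204 CPM in gld. Within the plexin sum, Plxna2, Plxnc1 and Plxnd1 are those called higher above. Plxna4 had a higher mean in gld and Plxna1 and Plxnb1 lower means, none of them called. Sema5a and Sema7a, both called lower above, make up most of the semaphorin sum in every library. The class 3 semaphorins alone overlapped, at 123, 65.1 and 52.5 CPM in wt against 58.6, 88.6 and 63.6 CPM in gld. Eph receptors summed to between 121 and 154 CPM in wt against between 125 and 138 CPM in gld, the one family of several tested members whose sums overlapped. Over all 42 genes the sum overlapped too, at 1373 to 1731 CPM in wt against 1398 to 1524 CPM in gld. The spread among libraries of a group differed widely between members: the SD was 1.1% of the mean for Efnb1 and 1.9% for Unc5c in gld, and 98.1% for Plxna4 in wt. The median over the 24 tested genes was 24.7% in wt and 22.8% in gld.

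**Figure D4:**
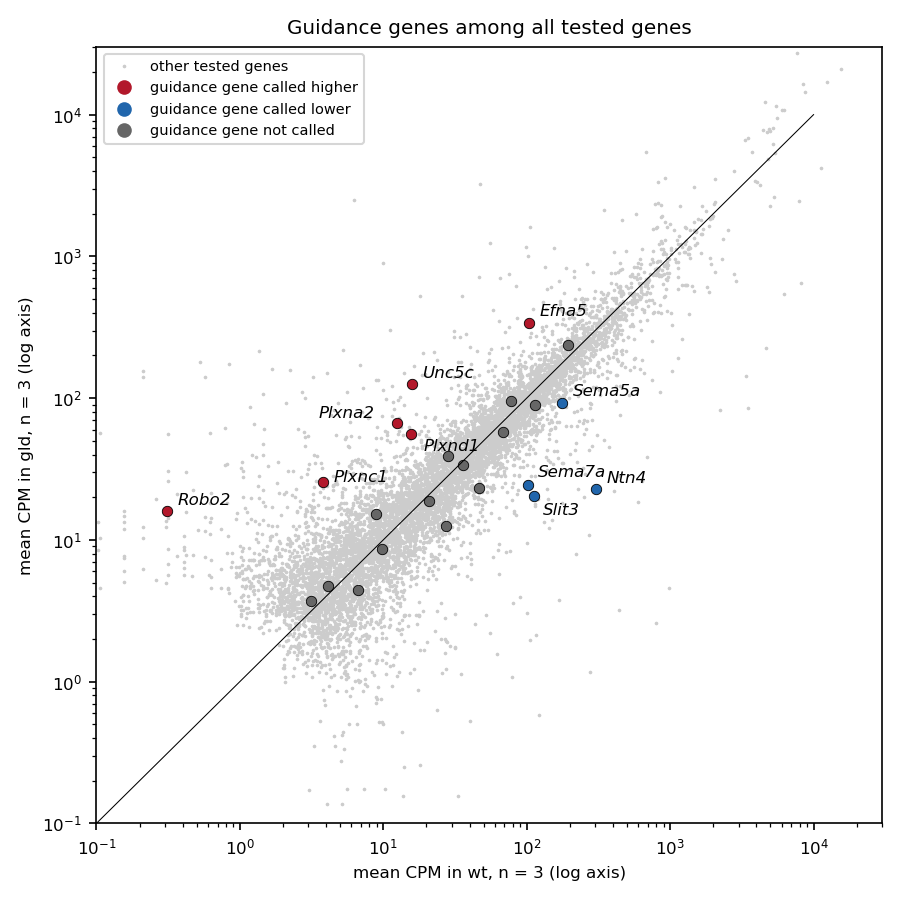
Mean CPM in wt (x, log axis) against gld (y, log axis), n = 3 each, for tested genes with a count in both groups (grey) and the 24 tested guidance genes (coloured by call); the line marks equal levels. Ntn4, at 306 CPM in wt against 22.9 CPM in gld, lies farthest below the line among guidance genes, and Robo2 farthest above it.

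Other genes of the same pathways, from lists of family relatives, co-receptors and intracellular partners, also went both ways; 17.4% of all tested genes were called, as above. Of 16 further ligands 8 were tested, 1 rose and 1 fell. Efnb3, an ephrin-B gene, had no count in wt and 96, 99 and 113 in gld, at least 69.6-fold higher (edgeR adjusted p = 1.47e-05), and it too passed the filter through gld alone. Draxin, a secreted guidance protein that binds DCC, went from 51.4 ± 9.21 to 18.4 ± 10.2 CPM (−1.49 ± 0.39, edgeR adjusted p = 0.0149), a call that was lost without wt 1 (0.0502) or wt 2 (0.0570). Of 19 further receptors and co-receptors 6 were tested, 3 rose and 2 fell. Neogenin (Neo1), a receptor of netrins and repulsive guidance molecules, rose by 1.63 ± 0.17, and Flrt2, a membrane protein that binds Unc5 receptors, by 1.20 ± 0.17. The neuropilin genes Nrp1 and Nrp2, co-receptors of class 3 semaphorins, fell by 1.07 ± 0.13 and 1.02 ± 0.17 (largest edgeR adjusted p of these 4 genes 0.000655). They fell while Plxna2 and Plxnd1 rose.

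Of 49 intracellular partners 22 were tested, 4 rose and 2 fell, beside 9.74% and 7.69% of all tested genes. Rnd3, a small GTPase of a group that binds plexins, rose from 43.8 ± 15.2 to 126 ± 21.3 CPM (1.54 ± 0.25). Mical2, of the family of actin-oxidizing enzymes that plexins engage, fell from 40.3 ± 6.32 to 9.47 ± 3.99 CPM (−2.08 ± 0.38). Dpysl2, which encodes the collapsin response mediator CRMP2, rose by 0.81 ± 0.15 (largest edgeR adjusted p of these 3 genes 0.00141). Enah, an actin regulator that acts with Robo receptors, rose by 0.54 ± 0.14 (edgeR adjusted p = 0.0144), and was not called in 5 of 12 alternatives, where its adjusted p reached 0.0887.

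**Figure D5:**
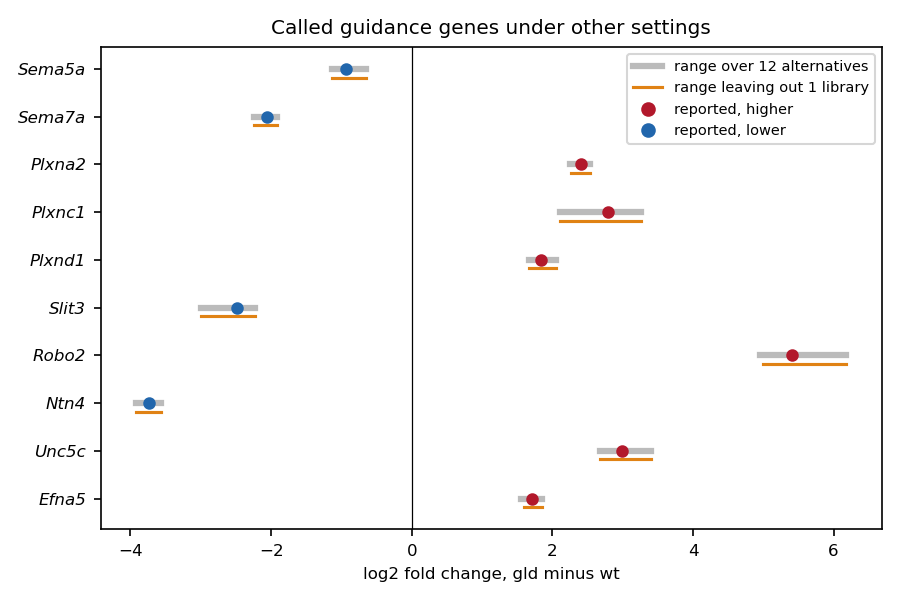
Log2 fold change of the 10 called guidance genes as reported (points), with the range over 12 alternative settings (grey) and over leaving out each of the 6 libraries (orange). No range reaches 0: Sema5a comes nearest, from −1.13 to −0.65, and Robo2 spans 4.96 to 6.18.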

How the data were processed

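Libraries were made with the QuantSeq 3′ FWD kit and read single-end over 75 nt, per the labels' protocols. Reads were trimmed with Cutadapt and aligned with STAR by the sequencing company, per the series' design text. FastQC, Trim Galore, DESeq2 and mm10 stand in the submitters' processing notes. How reads were counted, by which strand and on which annotation, is not given in the sources used here, so overlapping genes cannot be told apart. The authors deposited raw counts as whole numbers, 1 row per Ensembl gene, for 57180 identifiers and 1 empty row, left out here; 0 sample columns were unused. Symbols were found for 51883 identifiers.

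Genes were kept by filterByExpr (about 10 counts in 3 libraries, 15 in total), scaled by TMM and tested over all 6 libraries by the quasi-likelihood test of edgeR 4.0.16 (in R 4.3.3) without covariates, two-sided, Benjamini-Hochberg adjusted over all tested genes, called under 0.05. The standard error is the absolute log2 fold change over the square root of F. DESeq2 1.42.0 and limma-voom (limma 3.58.1) were alternatives. With 1 to 3 counts in a group the pooled ratio is given with its exact interval; intervals and floors (3 counts over a group) cover counting error only, as no molecular identifiers are mentioned. All members are named, called ones with full values; of the other guidance lists up to 4 called genes in order of adjusted p. The members, lists and motifs were chosen with earlier results of these data known. Promoter sequences are from RefSeq (GRCm38.p6), positions from GENCODE M21.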

Additional observations from a re-analysis of the deposited data

How the results depend on the processing

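The 12 alternatives were DESeq2's size factors, scaling by library size alone, no low-count filter, DESeq2, limma-voom, the replicate number as a block, and leaving out each library. The 10 called members kept their direction in all 12, and 8 of them their call; the exceptions are Plxnc1 (limma-voom, and without gld 3) and Robo2 (limma-voom). Members called higher numbered 4 to 7 and lower 4 to 6. Without each library in turn, the members' median log2 fold change ran from −0.27 to 0.22, so its sign is not settled, and the other guidance genes called higher ranged from 5 to 9 and lower from 3 to 6. Scaling by library size alone moved the median of all genes from 0.02 to −0.14. Some uncalled members turned in sign: Plxnb1 was at 0.037 in limma-voom and ran from −0.58 to 0.41 without each library in turn, Epha2 from −0.34 to 0.049, Efna2 from −0.27 to 0.069, Sema4b from −0.27 to 0.86 and Sema6a from −0.19 to 0.96. The cause was not tested.

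With the replicate block, 6 members were higher and 4 lower, as without it, and 1359 genes were called in place of 1515. The titles' numbers are not said to pair cultures, and same-numbered libraries did not deviate together (correlations −0.02, −0.01 and −0.02). Counting only members with a single-transcript end leaves 9 of the 10 calls. At these depths 18 of the 42 members had too few counts to be tested; as 16 of these 18 end in bases that several transcripts share, the part of depth in this was not tested.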
